A study of Mus musculus with 5 samples.

Results

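Tcf1 and Lef1 are the Tcf/Lef transcription factors of T cells, and the sites described here are stretches of chromatin that were open in naive CD8+ T cells of control mice, had no called counterpart in cells lacking both factors, and held the core word of the Tcf/Lef motif. Chromatin accessibility was mapped by DNase-seq, in which DNase I cuts exposed DNA and the freed fragments are sequenced, and the 2 deposited peak lists hold 31116 sites for the control pool and 25525 for the deficient pool. The sites were chosen by 3 criteria applied to these lists and to the mm9 genome. An autosomal peak of the control list was taken when it overlapped no peak of the other list by even 1 bp (a WT-only site) and when the 7-base word ATCAAAG lay wholly within 100 bp of the peak's summit on either strand. Of 30399 autosomal control peaks, 9164 (30.1%) were WT-only, and 632 of these held the word. These are called the WT-only core sites below. Since absence of an overlapping peak in the deficient list was itself a criterion, it is a description of the sites and no result about them.

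The control group (WT) was made of hCD2-Cre+ Rosa26GFP Tcf7+/+ Lef1+/+ mice and the deficient group (dKO) of hCD2-Cre+ Rosa26GFP Tcf7fl/fl Lef1fl/fl mice, so both carried the Cre and the GFP reporter. Mice were 6 to 12 weeks old and of both sexes, and the sources used here name no treatment for either group. The hCD2-Cre transgene acts mainly in mature peripheral T cells, and GFP marks the cells in which Cre had been active. Splenocytes were sorted as GFP+ TCRbeta+ CD8+ cells of a naive surface phenotype, with low to medium CD44. Reads of 3 WT and of 2 dKO replicates had been pooled before peaks were called, so the lists hold no value per replicate, and no difference between the genotypes was tested here. The WT list rests on 83923734 and the dKO list on 62242963 kept fragments, 1.35 times as many in WT, and the part of this depth difference in the WT-only calls was not tested. A WT-only site is a place without a dKO peak call. The dKO signal at such a site was not analysed here. All intervals below are 95% Wilson intervals for shares and order-statistic intervals for medians. They cover counting error over sites, which are not replicates of a genotype.

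The lists were first read against markers of the sorted population. The T cell genes Cd3d, Cd3e, Cd3g, Cd8a, Cd8b1, Lck, Ccr7 and Il7r each had a WT peak within 1 kb of a transcription start site (TSS), and all of these other than Cd3d had a dKO peak there. The exception, Cd3d, had a WT promoter peak that is itself a WT-only core site. This peak was weak, at percentile 14.4 of the autosomal WT list by fold enrichment. In its decile of that list, 55.5% of sites without the word had no dKO peak either. None of the B cell genes Cd79a, Ms4a1 and Pax5, of 4 myeloid genes (Csf1r, Ly6g, Itgax, Cebpa), 2 NK cell genes (Ncr1, Klrb1c) and 2 CD4+ T cell genes (Cd4, Zbtb7b) had a peak within 1 kb of a TSS in either list.

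Tcf/Lef proteins bind DNA through a high mobility group domain, which inserts into the minor groove and bends the helix. They either recruit beta-catenin to activate Wnt target genes or Groucho/Tle proteins to repress them, and in T cells they also act without Wnt signals. Tcf1, encoded by Tcf7, is induced by Notch signals in the thymus and takes part in T-lineage specification, while Tcf1 and Lef1 together sustain the identity of CD8+ T cells and the naive and memory states. A word of 7 bases is only the core of the motif. Its presence does not show that either factor was bound, and its absence does not show that none was.

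The 10 WT-only core sites with the highest fold enrichment are shown first, because they are the strongest openings of the group. Each line gives the word in capitals with the 20 bases on each side, read 5′ to 3′ on the strand of the word in mm9, under the gene with the nearest TSS.
Gm12862, chr4:118677843-118677889, minus strand: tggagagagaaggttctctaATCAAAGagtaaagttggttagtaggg
Zfp629, chr7:134772399-134772445, minus strand: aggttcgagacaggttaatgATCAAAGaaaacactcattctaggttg
4930519G04Rik, chr5:115309419-115309465, plus strand: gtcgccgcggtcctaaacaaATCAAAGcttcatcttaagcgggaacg
Arrdc3, chr13:81001577-81001623, plus strand: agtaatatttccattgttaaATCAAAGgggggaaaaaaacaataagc
SNORA55, chr13:46875328-46875374, minus strand: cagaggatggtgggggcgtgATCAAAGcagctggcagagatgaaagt
Car14, chr3:95711043-95711089, plus strand: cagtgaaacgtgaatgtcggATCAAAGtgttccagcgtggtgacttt
Plin2, chr4:86329434-86329480, minus strand: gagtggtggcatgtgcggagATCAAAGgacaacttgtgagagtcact
Adcy1, chr11:7045364-7045410, plus strand: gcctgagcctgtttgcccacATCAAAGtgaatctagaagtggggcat
Nck2, chr1:43460430-43460476, minus strand: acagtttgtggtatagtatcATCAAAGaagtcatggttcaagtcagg
Gm13652, chr2:74911387-74911433, minus strand: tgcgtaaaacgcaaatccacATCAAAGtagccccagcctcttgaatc

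The next sequences are from sites linked to genes of T cell identity, signalling and effector function. They show the word in the settings that the account by gene returns to, from the Lef1 site with the word almost at its summit to the Ctla4 site with the word farther out.
Lef1, chr3:130893758-130893804, minus strand: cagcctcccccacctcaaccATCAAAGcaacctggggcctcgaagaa
Ptprc, chr1:140059381-140059427, minus strand: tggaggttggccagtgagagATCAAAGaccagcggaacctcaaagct
Lcp2, chr11:33942975-33943021, plus strand: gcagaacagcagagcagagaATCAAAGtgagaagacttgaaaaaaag
Lck, chr4:129242638-129242684, plus strand: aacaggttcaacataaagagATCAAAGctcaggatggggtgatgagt
Il12rb2, chr6:67267928-67267974, plus strand: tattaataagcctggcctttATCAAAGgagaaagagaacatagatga
Gzmb, chr14:56915082-56915128, minus strand: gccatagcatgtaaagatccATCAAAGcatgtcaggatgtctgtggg
Ctla4, chr1:60939847-60939893, minus strand: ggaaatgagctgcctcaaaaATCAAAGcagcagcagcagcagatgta
Tcf7l2, chr19:55867202-55867248, minus strand: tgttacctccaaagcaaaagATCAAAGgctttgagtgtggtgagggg
Znrf3, chr11:5311804-5311850, minus strand: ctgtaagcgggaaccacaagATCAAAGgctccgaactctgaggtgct
Runx1, chr16:92810983-92811029, plus strand: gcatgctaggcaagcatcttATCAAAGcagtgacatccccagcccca
Klf3, chr5:65155840-65155886, plus strand: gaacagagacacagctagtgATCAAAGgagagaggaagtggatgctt

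The strongest sites lay mostly away from promoters. Fold enrichment, the ratio by which the pileup of fragments at the summit exceeds the local background, ran from 12.9 to 17.3 in these 10 sites, of which 7 were intergenic, 2 intronic and 1 within 1 kb of a TSS. The highest value, 17.3, belonged to an intergenic site 4.70 kb upstream of Gm12862 at chr4:118677652-118677839, where the word lay 74 bp from the summit and just beyond the called peak. The site with the next value, 16.9, lay 13.1 kb upstream of Zfp629, a zinc finger gene, at chr7:134772264-134772524. The only promoter site among the 10, with a fold enrichment of 15.1, lay 0.233 kb upstream of 4930519G04Rik at chr5:115309421-115309540. Arrdc3, which encodes an arrestin-domain protein, had an intergenic site upstream of its TSS with a fold enrichment of 14.6, and the word there lay in the flank of the called peak.

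The other strong sites were at genes of varied function. An intronic site with a fold enrichment of 14.0 lay in intron 25 of Kif13a, a kinesin motor gene, and was nearest to the small RNA gene SNORA55. Car14, a carbonic anhydrase gene, had a site 2.41 kb upstream at 14.0, and Plin2, which encodes a lipid droplet coat protein, had a site 13.4 kb upstream at 13.6. The site in intron 10 of the adenylyl cyclase gene Adcy1 reached 13.2 and was the most isolated of the 10, with the nearest dKO peak 450 kb away. Nck2, an SH2/SH3 adaptor that couples receptors to actin, had a site 42.2 kb upstream at 13.0. Of the 11 WT peaks linked to Nck2, 6 were WT-only, against 30.1% of all autosomal WT peaks. The 6 include 2 WT-only core sites, which were WT-only by choice and for which the gene is named. Among these 10 the word was closest to the summit, at 7 bp, in a site that lay 64.4 kb downstream of the Gm13652 TSS with a fold enrichment of 12.9.

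**Figure D1:**
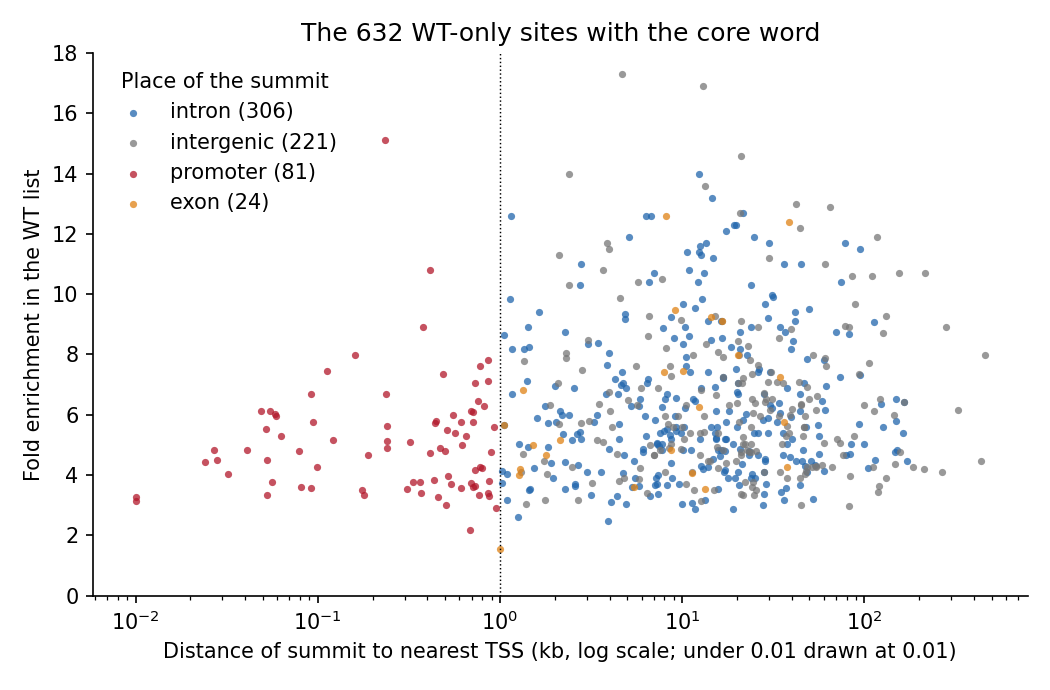
Each point is 1 of the 632 WT-only core sites, with the distance of its summit to the nearest TSS on a log axis (kb) and its fold enrichment in the WT list on the other axis, coloured by the place of the summit. Most points lie to the right of the dotted line at 1 kb, 306 of them in introns and 221 between genes, and of the 10 highest points only the promoter site at 15.1 is to its left.

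The WT-only core sites lay away from promoters more often than the other groups of WT sites did. The dKO-only sites were not compared by place, so a low promoter share is not shown to be particular to the WT-only core sites. Introns held 48.4% of them (306 of 632; 95% interval, 44.5 to 52.3) and intergenic DNA 35.0% (221; 31.4 to 38.8), while 12.8% (81; 10.4 to 15.6) lay within 1 kb of a TSS and 3.80% (24) in other exons. Promoters held 28.0% (27.0 to 28.9) of the 8532 WT-only sites without the word, 28.2% (24.7 to 32.1) of the 556 shared WT sites with the word, and 47.0% (46.4 to 47.7) of the 20679 shared WT sites without it. The intronic share was likewise higher than in WT-only sites without the word (36.1%; 35.1 to 37.1) and in shared sites with it (33.3%; 29.5 to 37.3), whereas the intergenic share (32.4% and 35.8%) had overlapping intervals in the 3 groups. The promoter share of the WT-only core sites was 8.39% with protein-coding transcripts alone, 7.59% within 500 bp and 19.6% within 2 kb of a TSS. It was 8.04% when both lists were held to a fold enrichment of at least 8, and 8.30% with the 20000 strongest autosomal peaks of each list.

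**Figure D2:**
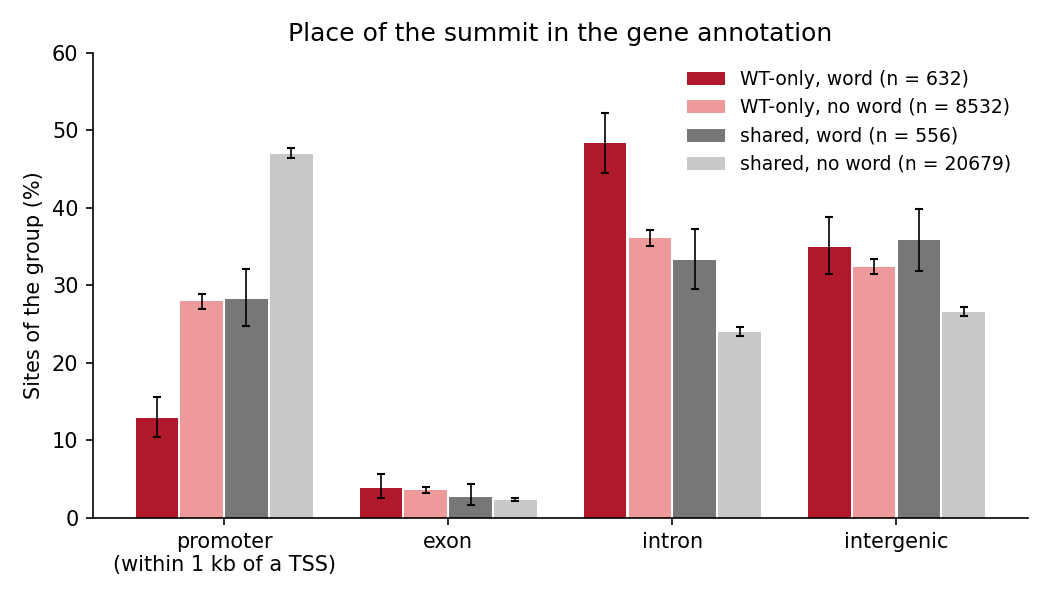
Bars give the percentage of sites of each group whose summit lay within 1 kb of a TSS, in another exon, in an intron or between genes, with 95% Wilson intervals. The WT-only core sites (dark red) have the lowest promoter share, 12.8%, and the highest intronic share, 48.4%, of the 4 groups.

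The median distance to the nearest TSS was 12.5 kb (10.4 to 14.5), against 6.77 kb (6.38 to 7.14) for WT-only sites without the word and 7.40 kb (6.01 to 9.12) for shared sites with it. The range from 10 to 50 kb held 41.9% (265 of 632) of the WT-only core sites, and a further 36 sites lay over 100 kb from any TSS. Of the 551 sites beyond 1 kb, 42.3% (38.2 to 46.5) were upstream of their nearest TSS. This share was 44.7% in WT-only sites without the word and 46.9% in shared sites with it, with overlapping intervals. The 306 intronic sites were in intron 1 of the transcript in 33.3% of cases (28.3 to 38.8), in intron 2 in 14.7% and in intron 3 in 11.4%. Intron numbers were not read for other groups of sites, so these shares are not shown to be particular to the WT-only core sites. For 227 of the 306 intronic sites the host gene was also the protein-coding gene with the nearest TSS. The WT-only core sites were spread over all 19 autosomes, from 1.88 sites per 10 Mb on chromosome 3 to 3.86 on chromosome 11. Their share of the WT-only sites ran from 4.21% on chromosome 17 to 9.64% on chromosome 13. Only 8 pairs of adjacent sites lay within 10 kb of each other. The windows had a median GC content of 47.8% (47.3 to 48.3), below the 50.7% of WT-only sites without the word and the 49.8% of shared sites with it.

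The sites were of modest strength. Their median fold enrichment was 5.67 (5.44 to 5.95), with quartiles of 4.44 and 7.44, and the median rank within the autosomal WT list was at percentile 27.7 (25.3 to 30.7). WT-only sites without the word had a median at percentile 24.7 (24.0 to 25.1), and shared sites with the word at percentile 63.1 (60.1 to 65.9). The lowest decile of the WT list held 18.7% (118) of the WT-only core sites and 23.5% of the WT-only sites without the word, and the upper end was thinly filled, with 14 sites in decile 9 and 3 in decile 10. The study's own criteria, a fold enrichment of at least 4 and a q under 0.05, were met by 529 sites (83.7%), a fold enrichment of 8 by 129 and of 10 by 58. The file headers say that q would not be calculated although the column holds values, but all 632 sites passed on q, the lowest -log10 q being 2.88, so fold enrichment alone set this count. The called peaks were narrow, with a median width of 165 bp (157 to 173), compared with 140 bp for WT-only sites without the word and 251 bp for shared sites with it.

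The word was more frequent in WT-only sites than in the shared and dKO-only sites. It was present in 6.90% (6.40 to 7.43) of WT-only sites, 2.62% (2.41 to 2.84) of the 21235 shared WT sites, 2.13% (1.70 to 2.67) of the 3423 autosomal dKO-only sites and 2.51% (2.31 to 2.73) of the shared dKO sites. Windows of the same length tiled over the autosomes held it in 4.07% of cases, so the shared and dKO-only sites lay below the genome and the WT-only sites above it. The tiled windows were not matched to the sites in base composition, and the part of composition in these differences was not tested. Read the other way, 53.2% (632 of 1188; 50.4 to 56.0) of WT sites with the word were WT-only, against 29.2% (28.7 to 29.7) of WT sites without it. The overlap with dKO peaks entered the choice of the sites, and these shares are given as a description of both lists. The number of WT-only core sites was 224 when both lists were held to a fold enrichment of at least 8, 277 with the 20000 strongest autosomal peaks of each list, and 354, or 3.86% of WT-only sites, with the word within 50 bp of the summit. The strength thresholds drop dKO peaks too, and since only 129 of the 632 sites reach a fold enrichment of 8, the 224 include sites that overlap a weaker dKO peak.

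Weak sites of any kind were often WT-only, so the shares were set out by strength, as a description, since the word and the missing dKO peak both chose the sites. In the lowest decile of the WT list by fold enrichment, 86.1% of sites with the word and 69.0% of sites without it had no dKO peak. In decile 4, from a fold enrichment of 5.90 to 6.88, the values were 70.9% (62.4 to 78.1) and 35.4% (33.6 to 37.1), the widest gap of the 10. In decile 8 they were 29.2% (21.4 to 38.5) and 9.71% (8.69 to 10.8). The share was higher with the word in each decile, and the intervals overlapped only in the highest decile, where 3 of 87 sites with the word (3.45%) and 1.93% of those without it were WT-only. Among the 20000 strongest autosomal peaks of each list by -log10 p, the shares were 40.3% with the word and 18.8% without it.

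**Figure D3:**
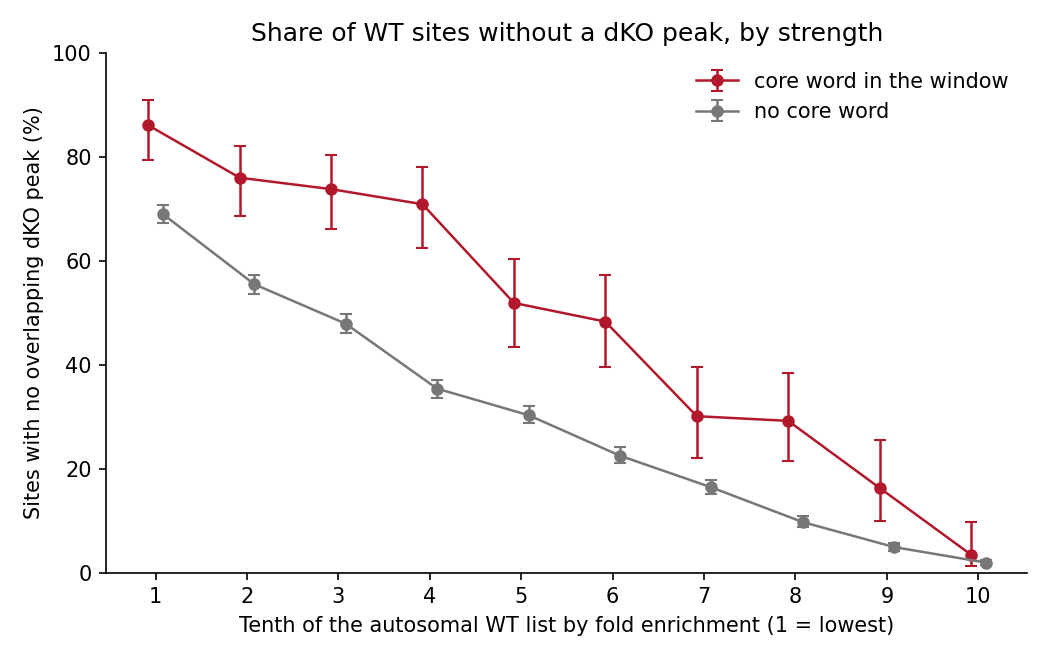
Points give the percentage of WT sites with no overlapping dKO peak in each decile of the autosomal WT list by fold enrichment, with 95% Wilson intervals, for sites with (red) and without (grey) the core word. Both series fall with strength, from 86.1% and 69.0% in the lowest decile to 3.45% and 1.93% in the highest, and the red points lie above the grey ones in each decile.

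The shares were also set out by place and base composition, again as a description, since the word and the missing dKO peak both chose the sites. Promoter sites with the word were WT-only in 34.0% (28.3 to 40.3) of cases against 19.7% without it, intronic sites in 62.3% (58.0 to 66.5) against 38.3%, and intergenic sites in 52.6% (47.8 to 57.3) against 33.4%. At a GC content of 45 to 50% the shares were 62.3% and 36.6%, and at 55 to 60% they were 36.7% and 24.7%. Above 60% GC the shares were 27.0% (18.2 to 38.1) and 19.3% (18.4 to 20.1), with overlapping intervals. Copies of the word were counted as well. WT sites with 1 copy in the window were WT-only in 52.4% (49.5 to 55.2) of cases, and those with 2 or more copies in 33 of 44 (95% interval, 60.6 to 85.4%). Among the 33 WT-only core sites with several copies, 3 held 3 copies, the sites nearest to Gm16096, Fam125b and Gm12495, which were singled out after their values were seen.

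The word lay closer to the summit in the WT-only core sites than in shared sites. The median distance of its centre from the summit was 43.0 bp (quartiles 23.8 and 67.0), against 52.0 bp (quartiles 33.0 and 73.0) in the shared sites, with 95% intervals of the medians that did not overlap, and 26.7% (169 of 632) against 18.7% (104 of 556) had it within 25 bp. Set out by distance, WT sites with the word at 0 to 10 bp were WT-only in 66.7% (56.2 to 75.7) of cases, at 26 to 50 bp in 55.9% (50.9 to 60.9) and at 76 to 97 bp in 45.6% (39.2 to 52.1). In 496 of the 632 sites (78.5%; 75.1 to 81.5) the word lay wholly inside the called peak, against 463 of the 556 shared sites (83.3%; 79.9 to 86.1), whose peaks were wider. WT sites with the word inside the called peak were WT-only in 51.7% (48.6 to 54.9) of cases, and those with it partly or wholly outside in 59.4% (52.9 to 65.5). The strands were used about equally, with 51.9% of words on the plus strand.

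**Figure D4:**
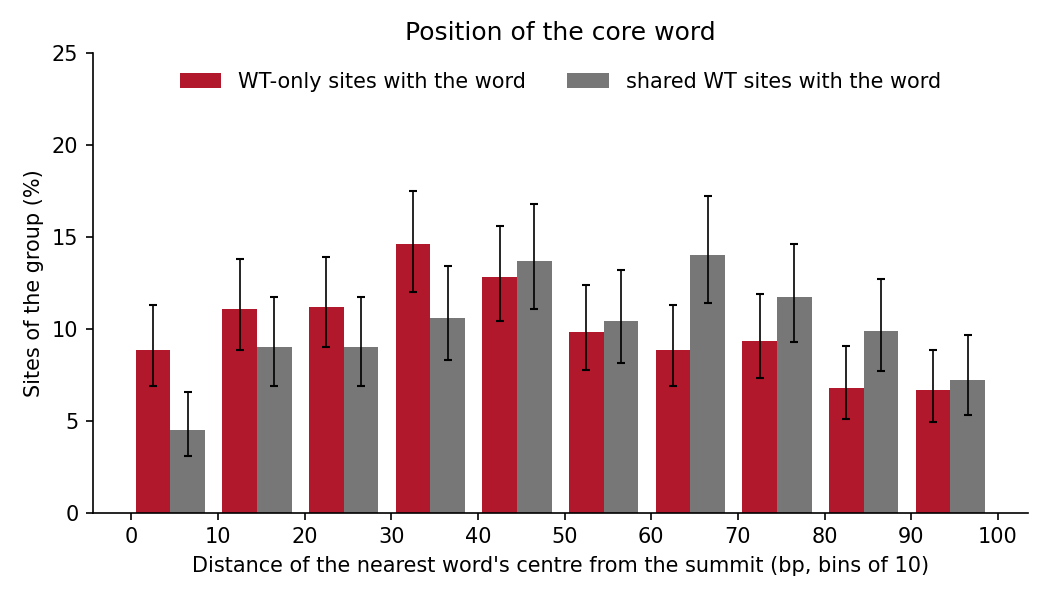
Bars give the percentage of WT-only core sites (red, n = 632) and of shared WT sites with the word (grey, n = 556) by the distance of the word's centre from the summit, in bins of 10 bp with 95% Wilson intervals. In the bin nearest to the summit there are 56 of 632 and 25 of 556 sites, and beyond 60 bp the grey bars are the higher ones.

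The bases next to the word differed between WT-only and shared sites, mainly on its 5′ side. C or G stood directly before the word in 72.8% (69.2 to 76.1) of the WT-only core sites and in 56.3% (52.1 to 60.4) of the shared sites. C alone made up 42.9% of the WT-only core sites, 31.8% of the shared sites and 29.8% of all words on the autosomes. The base after the word was G in 32.0% (28.4 to 35.7) of the WT-only core sites, 27.9% (24.3 to 31.7) of the shared sites and 24.8% of all words, so the values of the WT-only core and shared sites had overlapping intervals. WT sites with C or G before the word were WT-only in 59.5% (56.0 to 62.9) of cases, and those with A or T there in 41.4% (36.8 to 46.2). The order was the same in the stronger part of the WT list by fold enrichment (32.8% and 18.5%), in the weaker part (76.9% and 61.8%), in promoters (42.6% and 23.9%) and beyond 1 kb of a TSS (62.9% and 47.7%). With 2 bases before the word, AC gave 68.7% (112 of 163; 61.2 to 75.3) and AG 66.9% (107 of 160; 59.3 to 73.7), while CA gave 21.7% (18 of 83; 14.2 to 31.7), an interval that includes the 29.2% of sites without the word. Not all pairs followed the order by C or G, since CG gave 1 of 12 and TT 59.4% (42.3 to 74.5). These bases were examined after the composition around the word had been seen in these same sites. The shares by strength and place restate that contrast as a description, since the missing dKO peak also chose the sites.

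Words that differ from the core by 1 base were searched in WT sites without the core word, with positions counted from 1 at the 5′ end. A1T, which gives TTCAAAG, had the highest WT-only share of the 21 variants, 47.2% (707 of 1499; 44.6 to 49.7), followed by C3G with 43.2% (40.2 to 46.2) and C3A with 41.4% (38.1 to 44.8). G7C gave 41.2% (37.2 to 45.4). The lowest were A6C with 22.4% (16.5 to 29.8) and A4G with 33 of 127 (19.1 to 34.2%), both words that contain a CG dinucleotide. WT sites with neither the word nor any of its 1-base variants were WT-only in 25.5% (24.9 to 26.2) of cases. A site can hold several variants, so these shares are not independent of each other.

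Words of other transcription factor families were counted in the same windows on both strands. The Runx word TGTGGT was present in 29.0% (25.6 to 32.6) of the WT-only core sites, compared with 22.7% (21.8 to 23.6) of WT-only sites without the core word and 23.6% (20.2 to 27.3) of shared sites with it. The interval overlapped that of the shared sites and not that of the WT-only sites without the core word. Runx factors take part in the choice of the CD8 lineage. In the dKO-only sites it was present in 33.5% (31.9 to 35.1). The Ets word AGGAAG was the most common, at 41.0% (37.2 to 44.9), 36.8% and 39.7% in the same 3 groups, and its intervals overlapped between the WT-only core and shared sites. The Klf/Sp word GGGCGG, typical of GC-rich promoters, was less frequent in the WT-only core sites, with 7.91% (6.05 to 10.3) against 18.1% and 17.3%. A low share was not particular to these sites, since the dKO-only sites had 8.06% (7.20 to 9.02). The CTCF word CCACNAGG was found in 4.91% (3.48 to 6.88), 8.64% (8.06 to 9.25) and 8.09% (6.10 to 10.7), and the first interval overlapped the last. The AP-1 word TGANTCA was found in 9.34% (7.31 to 11.9) of the WT-only core sites and 6.43% (5.93 to 6.98) of the WT-only sites without the word, and the Irf word in 5.70% (4.14 to 7.79) and 3.60% (3.22 to 4.01). In shared sites with the core word the values were 7.73% (5.79 to 10.3) and 3.60% (2.34 to 5.49), and these intervals overlapped those of the WT-only core sites. The E-box CAGCTG (11.7%), the Gata word AGATAA (8.54%) and the NF-kB word (0.316%) were present in 13.3%, 7.06% and 0.926% of WT-only sites without the core word, with overlapping intervals.

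**Figure D5:**
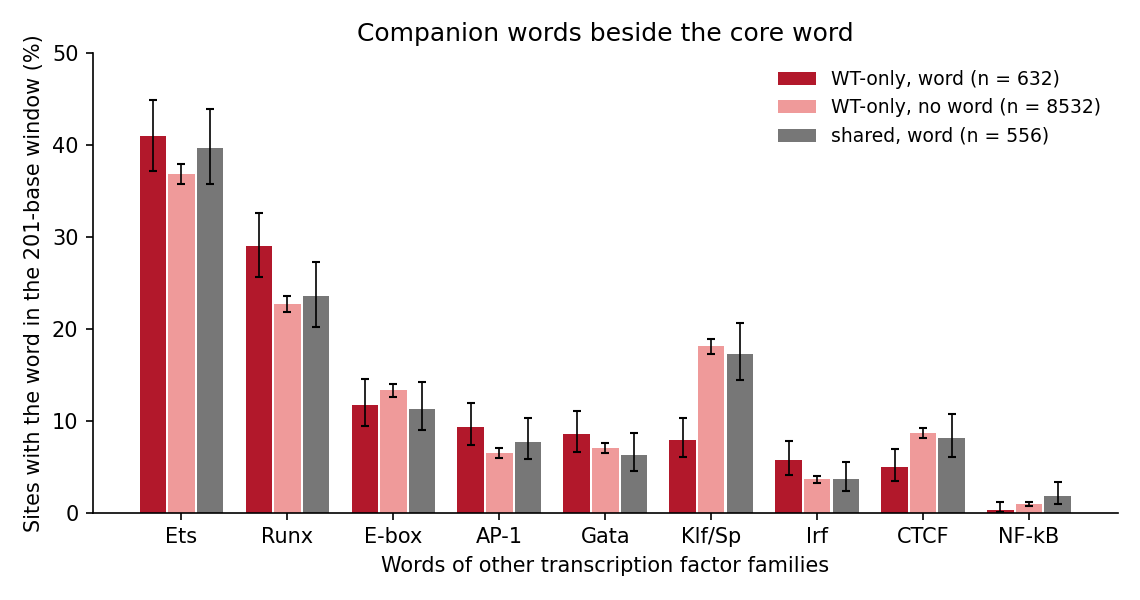
Bars give the percentage of sites whose window around the summit holds the word of each factor family, with 95% Wilson intervals, for WT-only core sites (dark red), WT-only sites without the core word (light red) and shared WT sites with it (grey). Ets words are the most common (41.0% of the WT-only core sites), Runx words are at 29.0%, and Klf/Sp words are at 7.91% against 18.1% and 17.3%.

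Runx words also lay closer to the core word in the WT-only core sites. The median distance between the words was 38.5 bp (31.5 to 50.5) in the 183 sites that held both and 63.5 bp (51.5 to 72.5) in the 131 shared sites. For Ets words the medians were 49.5 bp (39.5 to 54.5) and 44.5 bp (37.5 to 52.5), in the opposite order and with overlapping intervals. The core word itself lay nearer to the middle of the fixed window in the WT-only core sites, at a median of 43.0 bp against 52.0 bp. The part of this position in the Runx spacing was not tested. Both words can overlap in the single 12-base sequence ACCACATCAAAG, which was looked for after this spacing had been seen. It was present in 1.90% (1.09 to 3.29) of the WT-only core sites, 12 of 632, and in 0.360% (0.0987 to 1.30) of the shared sites, 2 of 556. These 2 intervals overlapped, and the sites with the 12-base sequence are among those of the Runx spacing above. Of the 509830 words on the autosomes, 0.0920% had it. Of the 14 WT sites with the overlapping words, 12 were WT-only (85.7%; 60.1 to 96.0). The word lay within 25 bp of the summit in 8 of the 12, and their median distance was 16.0 bp. The sequences below carry the other bases of the Runx word (accac on this strand) directly before the capitals, and stem from sites near the E3 ligase gene Pdzrn3, the receptor gene Tnfrsf19, the kinase adaptor gene Tab1, the topoisomerase gene Top1 and others.
Pdzrn3, chr6:101309826-101309872, minus strand: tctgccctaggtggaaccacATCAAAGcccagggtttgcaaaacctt
Tnfrsf19, chr14:61675529-61675575, minus strand: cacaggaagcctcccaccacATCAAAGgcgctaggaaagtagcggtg
Tab1, chr15:79980194-79980240, minus strand: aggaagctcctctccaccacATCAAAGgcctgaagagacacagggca
Gm10063, chr8:37091612-37091658, minus strand: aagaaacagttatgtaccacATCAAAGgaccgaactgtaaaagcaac
Gm14371, chr2:173680528-173680574, minus strand: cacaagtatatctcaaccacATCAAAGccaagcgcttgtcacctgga
Actl9, chr17:33593751-33593797, plus strand: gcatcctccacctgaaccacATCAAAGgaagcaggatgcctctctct
Ankrd50, chr3:38396172-38396218, minus strand: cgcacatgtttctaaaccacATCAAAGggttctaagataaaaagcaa
Immp2l, chr12:41894557-41894603, minus strand: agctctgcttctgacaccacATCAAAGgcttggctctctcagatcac
Skor1, chr9:63021967-63022013, minus strand: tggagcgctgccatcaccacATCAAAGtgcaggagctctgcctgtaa
Top1, chr2:160527524-160527570, plus strand: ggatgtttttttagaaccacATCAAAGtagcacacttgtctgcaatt

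The Pdzrn3 site, in intron 2 of that gene, was the strongest of these with a fold enrichment of 9.34 and the word 6 bp from its summit, and the Top1 site, 0.309 kb from the TSS, was the weakest with 3.53. The corresponding overlap of the core with the Ets word, ATCAAAGGAAG, was present in 13 WT-only core sites (2.06%; 1.21 to 3.49) and 7 shared sites (1.26%; 0.611 to 2.58), against 0.830% of all words. The Actl9 site held both overlaps. WT sites with the core word and no Runx word were WT-only in 51.4% (48.1 to 54.7) of cases, and those with the core and a Runx word in 58.3% (52.8 to 63.6), with overlapping intervals. WT sites with a Runx word and no core word were WT-only in 30.5% (29.4 to 31.6).

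By the nearest TSS the 632 sites were linked to 589 genes, of which 441 were protein-coding. Most genes had a single site (553), 30 had 2 sites, 5 had 3 and 1 had 4. A rule that takes each gene from 50 kb upstream of its TSS to its transcript end, and otherwise the closest gene, linked them to 1125 genes. It follows the study's rule without the chromatin loops used there. Rras2, which encodes a Ras-related GTPase, had the 4 sites, 2 in intron 1 and 2 upstream, over 102 kb, with fold enrichments from 4.12 to 6.20. Prkch, the gene of protein kinase C eta, had 3 intronic sites with fold enrichments of 3.67, 7.32 and 9.09 among its 25 WT peaks, of which 7 were WT-only, near the 30.1% of all autosomal WT peaks. Akap13, a kinase anchor gene, had 3 sites with values from 5.19 to 7.43, and Inpp4b, a phosphoinositide phosphatase gene, had 3 intronic sites from 4.25 to 7.06 over 275 kb. The 3 sites nearest to Gm16767 had Gadd45g, a growth arrest gene, as their closest protein-coding gene, and the 3 sites nearest to Gm17718 had the zinc finger gene Zfp281. Of the WT peaks linked to each gene, 7 of 13 were WT-only for Rras2 and for Inpp4b, and 8 of 24 for Akap13. For Gm16767 the count was 9 of 12 and for Gm17718 6 of 9. These counts include the sites for which the genes were named.

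Genes of T cell identity and signalling were next read from lists of genes. In all, 27 WT-only core sites were linked to a listed gene, which is 11.3% (27 of 239; 7.88 to 15.9) of the WT-only sites of the listed genes, against 6.90% of all WT-only sites. The listed genes also had more WT peaks each, 5.35 compared with 2.21 over all genes. Counts of listed genes with a site are given out of the listed genes with a WT peak, and stand beside 564 of 13733 (4.11%) over all gene names with a WT peak. Genes that share a name count once there, unlike in the 589 genes above. Of the 27 sites, 16 were intronic, 8 intergenic, 2 exonic and 1 in a promoter. Their median fold enrichment was 5.20, with 6 sites at 8 or more.

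T cell receptor (TCR) signalling had the most listed genes with a site, 7 of 23 with a WT peak, and 15.9% (7 of 44; 7.93 to 29.4) of the WT-only sites of this list held the word. Ptprc, which encodes the CD45 phosphatase, had the strongest of these, in intron 2 at chr1:140059220-140059664 with a fold enrichment of 11.6. The site of Lcp2, the gene of the SLP-76 adaptor, lay 3.98 kb upstream at 8.06, within intron 4 of the neighbouring gene 4930469K13Rik, and that of the kinase gene Lck in its intron 1 at 5.82. Fyn, another Src family kinase gene, had a site 10.2 kb upstream at 5.20. Themis, needed for thymocyte selection, was the gene nearest to a site at 4.77 that lay 148 kb away in intron 13 of Ptprk, and Cd247, the CD3 zeta chain gene, had a site in intron 1 at 4.17. The Cd3d site, 0.0280 kb upstream of the TSS of this CD3 delta chain gene, was the only promoter site of the listed genes, with a fold enrichment of 4.49 and the word 31 bp from the summit.

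Among T-lineage transcription factors, 6 of 21 genes had a site, and 7.79% (6 of 77; 3.62 to 16.0) of the WT-only sites of this list held the word, close to the 6.90% of all WT-only sites. The Lef1 site was the strongest, in intron 5 at chr3:130893683-130893894, with a fold enrichment of 11.7 and the word 2 bp from the summit. The Tcf7 site lay 1.27 kb upstream of the nearest Tcf7 TSS, in an exon of the non-coding gene A630014C17Rik at chr11:52097884-52097994, with a fold enrichment of 3.99. Lef1 and Tcf7 are the genes deleted in dKO cells. Within 50 kb of Lef1, 10 of 21 WT peaks were WT-only, and of Tcf7, 3 of 14, against 30.1% of all autosomal WT peaks. Both counts include the WT-only core site of the gene. Whether either site lies in or beside the deleted segment was not determined, since its position is not given in the sources used here, and the part of the deletion in these WT-only calls was not tested. Klf3 had a site 38.7 kb upstream at 5.39, and Runx1 a site in intron 2 at 5.20. Satb1, which encodes a chromatin organizer, had a site with 2 copies of the word 47.1 kb upstream at 4.05. Bcl11b, a factor of T-lineage commitment, had a weak site in intron 2 at 3.02.

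Among genes of naive homing and survival, the integrin gene Itgb7 had a site in intron 9 of the neighbouring gene Rarg at 3.62. Of the effector and cytotoxic genes with a WT peak, 2 of 15 had a site. The granzyme B gene Gzmb had an intergenic site 34.0 kb upstream at chr14:56915027-56915198 with a fold enrichment of 8.55, and Fasl, the Fas ligand gene, a site 21.2 kb upstream at 4.78. The inhibitory receptor genes Ctla4, Btla and Tigit made up the 3 of 12 genes of the inhibitory list with a site, all intergenic. Their fold enrichments were 6.13, 5.30 and 3.01. These lists had few WT-only sites, 11 and 15, of which 2 (5.14 to 47.7%) and 3 (7.05 to 45.2%) held the word.

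In the Wnt pathway 2 of 25 genes with a WT peak had a site, and both sites were above the median fold enrichment of the WT list. Znrf3, a ligase that removes Wnt receptors from the cell surface, had a site in intron 1 at 11.7, and Tcf7l2, a further member of the Tcf/Lef family, a site in intron 4 at 9.52 with the word 8 bp from the summit. The share of WT-only sites with the word was 6.90% (2 of 29; 1.91 to 22.0). Of the genes of other lineages, 1 of 9 B-lineage genes with a WT peak, 1 of 4 such myeloid, dendritic and NK genes and 1 of 10 such helper and regulatory genes had sites. They were the kinase gene Syk with 2 intronic sites at 6.21 and 4.09, the integrin gene Itgam with an intronic site at 3.72, and the nuclear receptor gene Rora with 2 sites in intron 1 at 5.02 and 4.46. The shares of the WT-only sites of these lists were 18.2% (2 of 11, 5.14 to 47.7%), 12.5% (1 of 8, 2.24 to 47.1%) and 11.8% (2 of 17, 3.29 to 34.3%). Each interval includes the 6.90% of all WT-only sites.

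A few sites were picked out because they overlap differential sites of the study whose linked gene its text names, a choice made on these same samples. Besides the Lef1, Gzmb and weaker Syk sites, they were an intronic site of Il12rb2, the interleukin 12 receptor beta 2 gene, and an exonic site linked to the cytokine receptor gene Flt3. The Il12rb2 site, in intron 8 at chr6:67267863-67268142, had a fold enrichment of 12.7 and ranked 12 of the 632. The Flt3 site, at chr5:148174710-148174896, lay 36.3 kb upstream of Gm17398, the gene with the nearest TSS, inside an exon of an annotated Flt3 transcript, at 5.77.

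The sites nearest to each criterion were as follows. The WT-only core site closest to a dKO peak, in an intron near SNORA66, was 88 bp away from it, those of Obfc2a and Napepld 106 and 115 bp, and the median gap was 10.2 kb (8.22 to 12.4). On the other side, shared sites with the word overlapped a dKO peak by 1 bp near Tle4, 4 bp near Tmem55a and 23 bp near T2. The words farthest from a summit were centred 97 bp away, in sites of Fam186b and Anapc10 among others, and the next ones outside the window were centred at 98 bp, at Mdm1, Gm13549 and Icosl. The lowest fold enrichments among the WT-only core sites were 1.54 and 2.19, both at Sfi1.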

How the data were processed

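DNase-seq libraries of 3 WT and 2 dKO samples were analysed through the deposited peak lists. Per the study's methods and the file headers, the authors aligned reads to mm9 with Bowtie2 2.2.5, pooled replicates and called peaks with MACS2 2.1.1 at p 1e-05, in paired-end mode and without a control. For each peak the authors deposited the pileup (a signal of overlapping fragments), the fold enrichment (a ratio to local background) and -log10 p- and q-values. The headers list 2 alignment sets of the same pool, so listed fragments were exactly 2 times those kept.

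Overlap, words, places and distances were computed with Python 3.11.15, pandas 2.3.3, pysam 0.24.0 and the gencode vM1 annotation of NCBIM37 (mm9), and checked on simulated data. Positions are 1-based. Sites and 9 gene lists were chosen with earlier results of these data known. Named sites were the 10 with the highest fold enrichment, the 3 highest per gene list, those of genes with 3 or more, those overlapping differential sites of the study whose gene its text names, and those nearest each threshold. Other listed genes, the overlapping words and sites with several words were added after their values were seen. Settings for peak strength, overlap, window, annotation and chromosomes were varied in 88 alternatives. Some listed genes are not reported here. The pooled lists hold no values per replicate, so genotypes were not tested.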

Additional observations from a re-analysis of the deposited data

How the results depend on the processing

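Across 88 alternatives, 64 values stayed within the 95% interval of the reported value (or within 1.5 times a reported count) and 24 did not. The share with G after the word was in the first group under all 9 settings. With a fold enrichment of at least 8 required in both lists, there were 224 sites at 220 genes, the word was in 5.77% of WT-only sites, 45.6% of sites with the word were WT-only, 8.04% were in promoters, the median percentile was 24.4 and 33.5% held a Runx word. With the 20000 strongest autosomal peaks of each list, there were 277 sites at 269 genes, 40.3% of sites with the word were WT-only and 8.30% were in promoters. Under the study's criteria 9.98% were in promoters. With the word within 50 bp of the summit, there were 354 sites at 341 genes, with shares of 3.86% and 58.9% and a median distance of 27.0 bp. With the word anywhere in the called peak, the shares were 6.27% and 45.8%. The promoter share was 7.59% within 500 bp, 19.6% within 2 kb and 8.39% with protein-coding transcripts. The median pileup percentile was 24.6. The study's linking rule without chromatin loops gave 1125 genes. Strength thresholds were applied to both lists, so these settings also turn sites that overlap a weaker dKO peak into WT-only sites. At a fold enrichment of 8 the 224 sites compare with 129 of the 632. The cause of the other shifts was not tested.

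The share of sites with the word in the 4 stricter list settings is given as a description only, since the word and the missing dKO peak chose the sites. It was higher in WT-only than in shared sites in each, and the lowest pair was 5.77% and 2.40% at a fold enrichment of 8. No paired analysis was possible because replicates were pooled before peaks were called and each genotype has a single list. Depth differed between the pools, and a peak missed at the lower dKO depth cannot be told apart from a closed site in these lists.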

Other observations

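The X chromosome, left out of the account above, had 644 WT peaks, of which 212 were WT-only and 8 held the word. The strongest of these 8 were an intronic site of Cxx1b with a fold enrichment of 12.5, an intergenic site 62.5 kb from the microRNA gene Mir363 with 10.8, and a promoter site of Gprasp2 with 8.55. On the Y chromosome 1 of 59 WT peaks was WT-only and it lacked the word.

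The mirror group of dKO-only sites with the word was small, with 73 of 3423 sites. Its strongest sites were linked to Gm13179, with a fold enrichment of 12.8 in the dKO list, to the amino acid transporter gene Slc7a1 with 12.5 and to the tetraspanin gene Cd82 with 11.6. C or G stood before the word less often there, with C in 19 of 73 (17.3 to 37.1%) and G in 13.7% (7.61 to 23.4) of these sites, against 42.9% (39.1 to 46.8) and 29.9% (26.5 to 33.6) in the WT-only core sites.

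By closest protein-coding gene, Cd47, which encodes a signal against phagocytosis, also had 3 WT-only core sites, with fold enrichments up to 4.78, and Bcl11b, Etv5 and Btg1 had 2 each. Pairs of the word stood at short steps in a few sites, such as 15 bp on the same strand at Inpp4b and 10 bp on the same strand at Stra6 and Tmem132c. These sites were picked after their values were seen, and no explanation was examined.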
